A study of Mus musculus with 2 samples.

Results

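Open chromatin at 10 receptor genes for cytokines that act on T cells was compared between regulatory T (Treg) cells that have or lack transketolase (Tkt). This enzyme belongs to the non-oxidative part of the pentose phosphate pathway, and Treg cells are the Foxp3-expressing CD4 T cells that restrain immune responses. The genes were Il7r, Il4ra, Il21r, Il6ra, Il9r, Il15ra, Il12rb1, Il17ra, Ifngr1 and Ifngr2. Their regions were all peaks that the authors' tables assign to one of these symbols, which gave 33 of 34440 peaks in wild-type cells and 23 of 19680 peaks in knockout cells. The assay was ATAC-seq, in which the Tn5 transposase inserts sequencing adapters into accessible DNA, and a peak is a stretch where insertions pile up.

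Both groups were CD4+CD25+YFP+ cells sorted from spleen and lymph node of C57BL/6 females aged 7 weeks, 50000 cells for a library. Wild-type cells (WT) came from Foxp3cre/+ mice and knockout cells (cKO) from Foxp3cre/+ TKTfl/fl mice, so both carried the Cre allele. Cre was driven from Foxp3, a gene on the X chromosome, and the mice had 1 Foxp3 allele without Cre. The labels call the animals chimeric, and the sort on YFP took the Cre-expressing cells. There was 1 library for each genotype. Every difference below therefore compares 2 libraries, has no replicate check and carries no p-value. Read totals were not used here and depth is unknown. Because the cells were analysed in bulk, a site open in fewer cells and a site less open in each cell cannot be told apart.

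These receptors hand signals from outside the cell to Janus kinases and STAT transcription factors, apart from the IL-17 receptor, which works through adaptor proteins. The IL-7, IL-4, IL-9, IL-15 and IL-21 receptors share the common gamma chain (Il2rg), the IL-6 receptor signals through gp130 (Il6st), and IL-12 receptor beta 1 pairs with different second chains to bind IL-12 or IL-23. Ifngr1 binds interferon-gamma and Ifngr2 completes its receptor. Resting Treg cells are known for low surface IL-7 receptor, and IL-6, IL-21, IL-4, IL-12 and interferon-gamma are known as signals that can oppose Treg differentiation or stability.

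Promoter sequences of 4 receptors show the range of the group: the interferon-gamma receptor chains, open in both libraries, Il6ra, open although no peak is assigned to it, and Il7r, where the sequence before the start was under no called peak. They were taken from RefSeq (GRCm38.p6), run 5′ to 3′ on the strand of the gene and end before the first annotated start of the receptor gene. Capitals mark matches to the STAT motif TTCNNNGAA and the Sp/KLF motif GGGGCGGGG.
Ifngr1, chr10:19591699-19591948, plus strand: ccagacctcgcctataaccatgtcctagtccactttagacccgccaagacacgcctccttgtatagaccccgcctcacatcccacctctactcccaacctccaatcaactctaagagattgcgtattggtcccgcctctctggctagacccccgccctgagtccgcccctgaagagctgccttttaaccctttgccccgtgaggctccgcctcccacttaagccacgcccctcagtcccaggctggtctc
Ifngr2, chr16:91546809-91547058, plus strand: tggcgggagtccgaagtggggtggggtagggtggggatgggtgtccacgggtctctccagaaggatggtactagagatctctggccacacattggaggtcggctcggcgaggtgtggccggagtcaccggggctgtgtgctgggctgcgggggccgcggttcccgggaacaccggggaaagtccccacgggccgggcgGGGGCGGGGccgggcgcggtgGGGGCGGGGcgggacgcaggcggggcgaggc
Il6ra, chr3:89913197-89913446, minus strand: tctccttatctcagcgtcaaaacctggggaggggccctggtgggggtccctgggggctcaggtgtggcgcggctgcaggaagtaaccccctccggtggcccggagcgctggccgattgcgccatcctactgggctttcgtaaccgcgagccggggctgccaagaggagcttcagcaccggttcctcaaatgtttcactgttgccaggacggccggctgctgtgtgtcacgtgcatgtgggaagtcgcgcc
Il7r, chr15:9529942-9530126, minus strand: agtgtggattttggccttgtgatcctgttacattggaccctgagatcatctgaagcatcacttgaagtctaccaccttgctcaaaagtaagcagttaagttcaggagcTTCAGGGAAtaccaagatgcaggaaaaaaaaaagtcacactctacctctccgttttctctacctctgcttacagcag
WT and cKO peaks covered all 250 bases printed for Ifngr1 and for Ifngr2. The Il6ra stretch was covered over 250 bases in WT and 235 in cKO. None of the 185 bases printed for Il7r lay under a peak in either library.

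Most open regions of these receptor genes were called in both genotypes. Among the 33 WT peaks, 23 overlapped a peak of the cKO list by at least 1 bp (69.7%, Wilson 95% interval 52.7 to 82.6, counting error only). Over all WT peaks the share was 56.1%, inside that interval. In the other direction a WT peak overlapped 23 of 23 cKO peaks, with a Wilson interval of 85.7 to 100%. The 0 without a partner allow a share of up to 13.0% when 3 counts of the total are taken as the limit, and over all cKO peaks the share was 97.6%. With only peaks above the median score of each list the WT share was 55.6% against 57.0% over all peaks, and with equal numbers of peaks in both lists 81.0% against 83.0%. The receptors thus lay just below the background under both settings. They lay above it with a reciprocal overlap of 50% (60.6% against 51.1%), with a common width minimum (76.7% against 60.9%) and without Il21r (72.7% against 56.1%, a setting chosen after the data were seen). The WT to cKO ratio in number of peaks was 1.43 for the receptors and 1.75 for the whole lists.

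Of the 10 genes, 9 had a WT peak and 8 a cKO peak. Over all genes with a WT peak, 71.8% had at least 1 cKO peak. Every WT peak was overlapped at Il4ra, Il15ra, Il17ra and Ifngr1, which is 4 of 9 genes, against 46.8% over all genes. Some were overlapped at Il7r, Il21r, Il12rb1 and Ifngr2, and the only peak of Il9r was not. These classes hold for the lists as deposited, and several changed with the setting. With the reciprocal overlap the share of Il4ra was 66.7%. Above the median scores the share was 0% at Il7r and Il12rb1 and 100% at Ifngr2. With equal numbers of peaks it was 100% at Il12rb1 and Ifngr2. Il15ra, Il17ra and Ifngr1 stayed at 100% under these settings. All 9 genes with a WT peak had one of the authors' promoter class (up to 3 kb from a transcription start site, TSS), and 7 of them also had one in cKO, where 77.0% of all genes with a WT promoter peak did. The 2 without were Il9r and Il12rb1. By class, 10 of 12 promoter peaks of the receptors were overlapped (83.3%, 55.2 to 95.3), against 74.3% over all promoter peaks. Among their other peaks 13 of 21 were (61.9%, 40.9 to 79.2), against 41.4%. Of the WT peaks assigned to the receptors, 7 lay in a first intron. Among these, 4 were overlapped (57.1%, 25.0 to 84.2), against 44.5% of all first-intron peaks. Peaks in intron 1 of Il6ra carry the symbol of another gene and are not in this count.

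**Figure D1:**
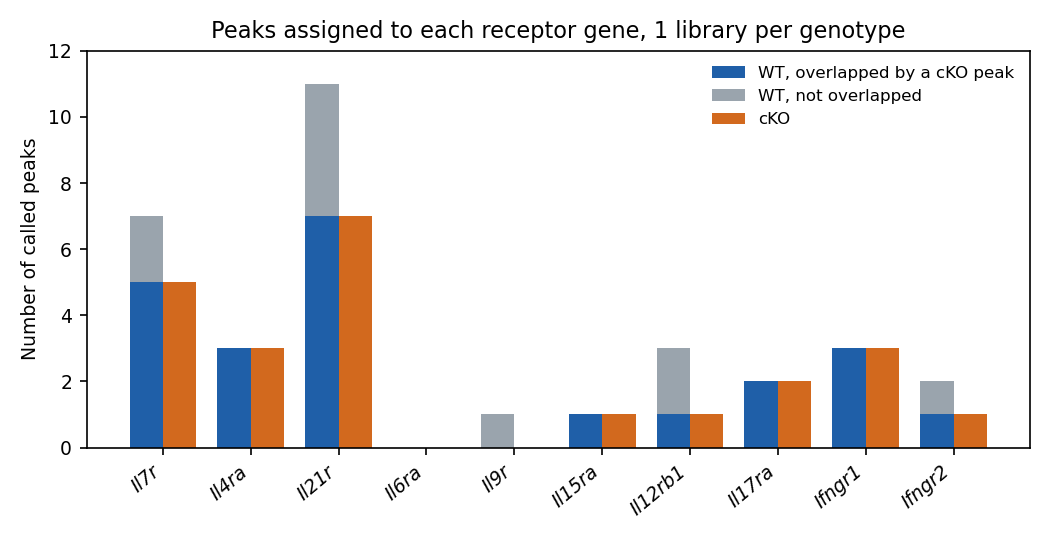
Number of called peaks (vertical axis) for each receptor gene, with WT bars split into peaks overlapped by a cKO peak (blue) and not overlapped (grey), and cKO bars in orange. Il21r leads with 11 WT and 7 cKO peaks, and Il6ra has 0 assigned peaks in either library.

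Il7r encodes the alpha chain that binds IL-7, a survival signal of naive and memory T cells. It had 7 WT and 5 cKO peaks, and 5 of the 7 WT peaks were overlapped (71.4%, 35.9 to 91.8). Its strongest peak in both libraries lay on chromosome 15. It spanned 9527274 to 9529179 (WT) and 9527497 to 9529169 (cKO). This peak began 649 bp (WT) and 659 bp (cKO) inside the gene and did not span the TSS. Its score percentile, the share of peaks in the same list with a score as high or lower, was 76.3 in WT and 49.2 in cKO.

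Upstream of Il7r, where an enhancer bound by Foxo1 has been described, a shared peak started 2959 bp from the TSS in WT and 3112 bp in cKO. Whether this is that enhancer was not tested. The WT peak was classed as promoter and the cKO peak as distal intergenic, because the distance is taken from the nearer edge and the cKO peak was narrower, at 797 against 1422 bp. Another cluster lay 42468, 44783 and 50560 bp upstream in WT, beside and within the neighbouring gene Spef2, and all 3 peaks were overlapped in cKO. The 2 most distant WT peaks inside Spef2, at 66548 bp (exon 29 of 35) and 78106 bp (intron 27 of 34), had no cKO partner. Their percentiles were 47.9 and 31.1, and the nearest cKO peaks were 14810 and 26368 bp away. Of all WT peaks outside the promoter class in the same score bins, 43.3% and 29.6% were overlapped.

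Il4ra and Il21r are neighbours on chromosome 7, separated by 23777 bp in RefSeq. Il4ra, the chain that binds IL-4 and with a partner IL-13, had 3 WT and 3 cKO peaks, all overlapping (3 of 3, 43.9 to 100%). The promoter peak spanned the TSS, with WT limits of 125551596 and 125553166 and cKO limits of 125551579 and 125553159, at percentiles 80.0 and 67.5. The next began 1888 bp inside the gene in WT and 2403 bp in cKO, and was 1675 bp wide in WT and 755 bp in cKO. A peak in intron 1 of 10 stood 8500 bp from the TSS in WT (percentile 67.1) and 8561 bp in cKO (54.6).

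Il21r encodes the receptor chain for IL-21, a cytokine of follicular and other helper T cells. With 11 WT peaks it had more than most genes, since 0.375% of genes with a WT peak have 11 or more. A cKO peak overlapped 7 of the 11 (63.6%, 35.4 to 84.8), and 24 genes with 11 WT peaks had a median of 6.50 overlapped. The strongest WT peak of Il21r lay 14324 bp upstream, between the genes, at 125588160 to 125589170, with percentile 81.3 in WT, and its cKO partner at 125588433 to 125589097 had percentile 51.8. The strongest cKO peak lay beyond the gene, 31903 bp from the TSS, at percentile 60.4, and its WT partner had 60.8. At the Il21r TSS the WT peak (125603173 to 125604066, percentile 47.0) and the cKO peak (125603430 to 125604170, percentile 11.1) overlapped by 637 bp. The peaks 9200 bp upstream, and 1729, 3413 and 17487 bp inside the gene, were also overlapped.

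The 4 WT peaks of Il21r without a cKO partner differed in strength. One at 9114 bp and one at 16695 bp, both in intron 1 of 7, had percentiles 3.70 and 12.3, and the latter was 416 bp wide. In exon 7 of 8, at 26544 bp, a peak of 864 bp (125630081 to 125630944) reached percentile 69.3, and beyond the gene, at 34776 bp, a peak of 1010 bp reached 62.1. Of all WT peaks outside the promoter class in the same score bin as these last, 80.7% were overlapped. The exon peak and the downstream peak were the highest-scoring receptor peaks without a partner. The nearest cKO peak was 4496 bp away from the exon peak and 1662 bp from the downstream one.

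Across the Il4ra and Il21r span of 87727 bp, 10 of the 14 WT peaks assigned to them were overlapped (71.4%, 45.4 to 88.3). A further peak in this span, at 125579971 to 125581850 and just past the end of Il4ra, was assigned to the predicted gene Gm44876. It stood at percentile 87.1 in WT and 82.8 in cKO and was shared. By the number of peaks, of overlapped peaks and of cKO peaks, the genes most like Il21r were Fam3c, Fyb and Pik3r1, out of 4 genes with the same 3 counts. The measure was the summed difference in the percentile of the strongest peak over the 2 libraries, and it came to 17.4, 20.9 and 40.2 points.

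**Figure D2:**
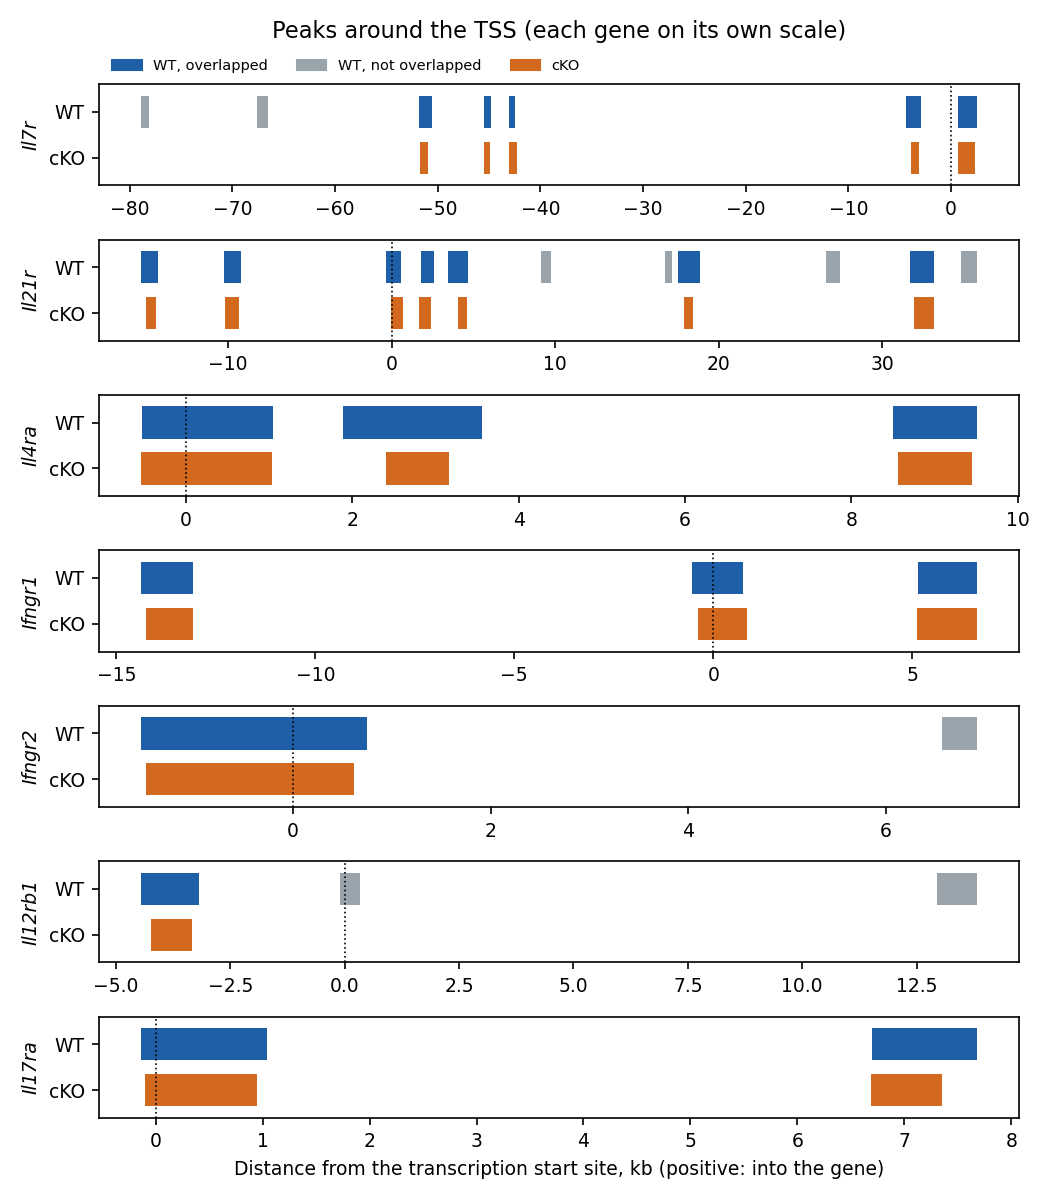
Positions of the peaks of 7 receptor genes, with distance from the TSS of 1 transcript of each gene in kb on the horizontal axis and WT above cKO. Blue WT peaks are overlapped by a cKO peak (orange) and grey ones are not: the grey peaks of Il7r are its 2 farthest from the gene, while those of Il21r lie in intron 1, in exon 7 and past the gene end.

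The interferon-gamma receptor chains both had an open promoter in both libraries. Ifngr1 held the highest-scoring peaks of the group and 3 of 3 WT peaks were overlapped. Its promoter peak on chromosome 10 (WT 19591420 to 19592694, cKO 19591564 to 19592805) ranked at 1024 in the WT list (percentile 97.0) and at 2423 in the cKO list (87.7). An intergenic peak 13084 bp upstream (19577571 to 19578865) stood at percentile 92.7 in WT, and its cKO partner at 93.9 was the strongest cKO peak of all 10 genes. The other peak, which the authors placed at exon 2 of 7, lay 5138 bp inside the gene, at percentile 68.8 in WT and 62.8 in cKO.

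Ifngr2 had 2 WT peaks and 1 cKO peak. The promoter peak on chromosome 16 was the widest of the group, 2290 bp in WT (91545532 to 91547821) and 2108 bp in cKO (91545581 to 91547688), at percentiles 54.3 and 51.2. An intron 1 peak 6566 bp from the TSS was called in WT only, was 361 bp wide and had percentile 33.7. The narrowest peak of the whole WT list had 360 bp and that of the cKO list 465 bp.

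Il12rb1, shared by the receptors for IL-12 and IL-23, had 3 WT peaks and 1 cKO peak. The shared region on chromosome 8 lay 3176 bp upstream in WT (70803999 to 70805273, percentile 72.2) and 3336 bp upstream in cKO (70804214 to 70805113, percentile 46.7). At the promoter only WT had a peak, 432 bp wide (70808346 to 70808777, percentile 10.9), where 18.5% of WT promoter peaks of its score bin were overlapped. The other WT peak without a partner, at percentile 39.0, was of the 3' UTR class, 12903 bp from the TSS. For Il12rb1 the cKO peak nearest to the RefSeq gene was 3247 bp away from it.

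Il17ra, the chain common to most IL-17 receptors, shared both of its peaks. The promoter peak on chromosome 6 spanned 120463110 to 120464284 in WT (percentile 75.8) and 120463144 to 120464193 in cKO (80.3). Its intron 1 peak, 6694 bp from the TSS, was weak in each list, at percentiles 12.7 and 1.70. Il15ra, which holds and presents IL-15, shared its single promoter peak on chromosome 2 (WT 11705231 to 11706515, cKO 11705360 to 11706523), at percentiles 72.7 and 55.7. Il9r, the receptor chain for the mast cell and T cell growth factor IL-9, had a single WT peak over the TSS of the assigned transcript on chromosome 11 (32199309 to 32201045), 1737 bp wide and at percentile 44.3, with no cKO partner. Of WT promoter peaks in that score bin 55.6% were overlapped. The RefSeq span of Il9r reaches farther upstream, to 32205283, and that outer end lay inside a shared peak that the authors assigned to the promoter of Snrnp25 (32205042 to 32205844 in WT, percentile 86.4, and 76.1 in cKO). The RefSeq start near the assigned TSS, at 32200279, lay under the WT peak and under no cKO peak.

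Il6ra, the chain that binds IL-6, had no assigned peak, but its locus was open in both libraries. RefSeq places the gene on the minus strand of chromosome 3, at 89869324 to 89913196. Its start lay under a WT peak at 89912219 to 89913721 (percentile 64.9) and a cKO peak at 89912341 to 89913431 (percentile 67.8), which the authors assigned to Gm42809, a predicted gene of the opposite strand whose TSS is 280 bp from that of Il6ra. Within 10 kb of Il6ra there were 9 WT and 5 cKO peaks, and all were assigned to Gm42809 or to She. Of the 7 WT peaks on Il6ra itself, 3 were overlapped by a cKO peak: the promoter peak, one in intron 1 of 9 (89905153 to 89906682, percentile 45.5) and one near the gene end of the 3' UTR class, whose assigned gene is She (89870945 to 89872718, percentile 82.6 in WT and 83.5 in cKO). The other 4, in introns 1 and 6, stood at percentiles 2.89 to 30.1.

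**Figure D3:**
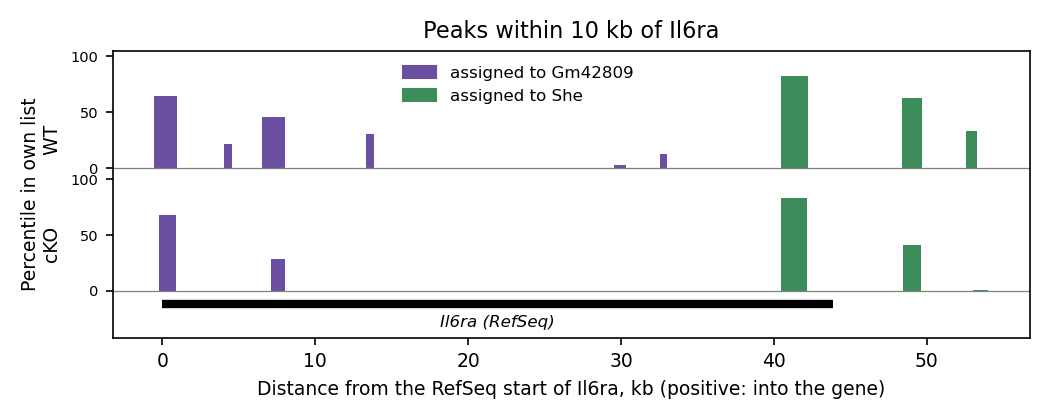
Peaks within 10 kb of Il6ra, by distance from its RefSeq start in kb (horizontal axis) and score percentile within their own list (height), WT above cKO and coloured by the gene the authors assigned. The start of Il6ra is under a peak in both libraries, at percentile 64.9 in WT and 67.8 in cKO.

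Assignment to genes therefore bears on these counts. Counted within 10 kb of the RefSeq genes instead, the receptors had 46 WT and 29 cKO peaks, and a cKO peak overlapped 29 of the 46 (63.0%, against 56.1% of all WT peaks). Of those WT peaks, 19 carried the symbol of a gene outside the group, and 10 of these 19 were overlapped, to be read against the same 56.1%.

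Over all WT peaks the share with a partner rose with score, from 6.68% in the lowest score bin to 99.5% in the highest. In the upper 3 of 10 equal score bins 8 of 8 receptor peaks were overlapped, against 97.7% of all WT peaks, and in bins 4 to 7 9 of 16 were (56.2%, 33.2 to 76.9), against 56.5%. In bins 1 to 3 the receptors had 6 of 9 overlapped (66.7%, 35.4 to 87.9), against 13.9% of all WT peaks. These bin groups were chosen after the values were seen. The 6 weak shared peaks were those of Il7r at 42468 and 50560 bp, Il4ra at 1888 bp, Il21r at 1729 and 17487 bp and Il17ra at 6694 bp. They were between 633 and 1675 bp wide, and of all WT peaks in these bins of 633 bp or more 22.6% were overlapped. That limit was taken from the shared receptor peaks themselves, so it gives no independent comparison. Of all WT peaks in these bins of 1000 bp or more 35.0% were overlapped, and of the receptor peaks 3 of 3. The median width of all peaks in bins 1 to 3 was 613 bp.

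The 10 WT peaks without a partner had a median percentile of 36.4, from 3.70 to 69.3, and the 23 with one had 60.8, from 6.79 to 97.0. Median widths were 821 and 1280 bp. Narrower than any cKO peak were 3 of the 10, at Il21r, Il12rb1 and Ifngr2, and 0 of the 23. In 20 of the 23 pairs the cKO peak was the narrower one, and over all pairs of single partners this share was 85.3%. The median ratio of cKO to WT width was 0.840 for the receptors and 0.837 over all 18926 pairs. Scores of the 23 pairs were ordered alike in the lists, with a Spearman rho of 0.87 against 0.90 over all pairs. That is a description across peaks, which share their libraries and are not independent.

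**Figure D4:**
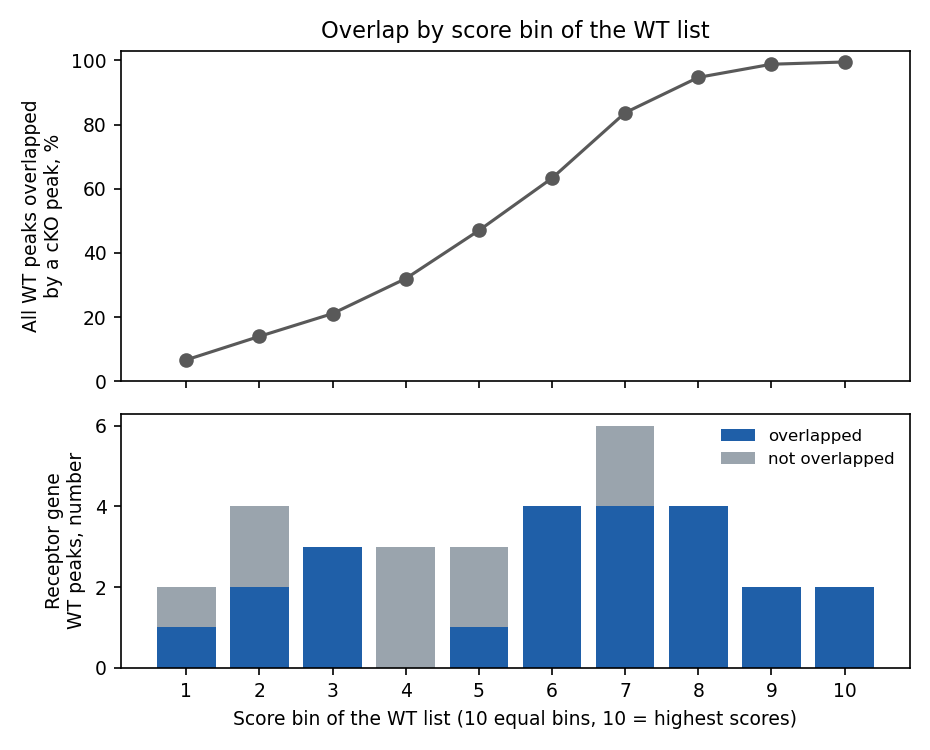
Upper panel: percent of all WT peaks overlapped by a cKO peak in each of 10 equal score bins. Lower panel: number of receptor gene WT peaks in each bin, overlapped (blue) or not (grey), with 8 of 8 overlapped in bins 8 to 10 and 6 of 9 in bins 1 to 3.

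**Figure D5:**
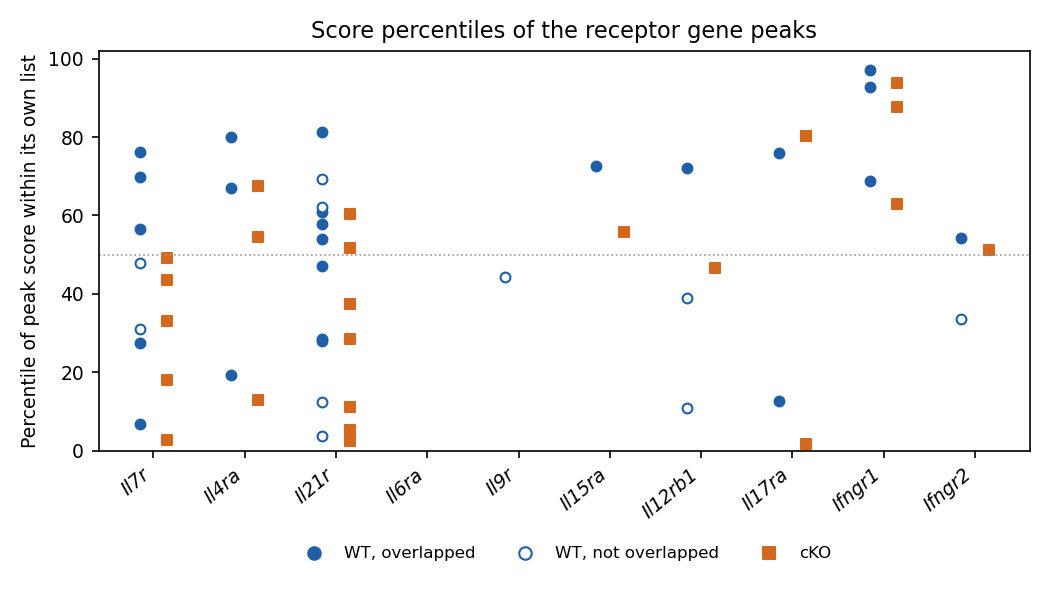
Score percentile of each receptor gene peak within its own list, for WT peaks with (filled) and without (open) a cKO partner and for cKO peaks (squares). The dotted line marks the median of each list. Ifngr1 stands highest in both lists by different peaks, at 97.0 for its WT promoter peak and 93.9 for its cKO intergenic peak. The lists differ in length, so the heights of circles and squares do not measure a change.

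In RefSeq windows from 250 bases before to 50 after a start, 8 of the 10 genes were represented, by 9 windows. Il12rb1 and Il17ra had none. A WT peak overlapped 8 of the 9 windows, against 37.1% of all 32851 windows, and a cKO peak 6, against 31.9%. Those without a cKO peak were 1 of the 2 windows of Il15ra, that of Il9r and that of Il7r. The C and G content of the windows ran from 45.7% at Il7r to 74.3% at Ifngr2.

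Motifs were searched on both strands, overlaps kept, and a match is only a string of letters. The shares in parentheses are those over all windows and over windows with a WT peak. The STAT motif TTCNNNGAA occurred at Il7r alone among these windows, within the stretch printed above (8.30% and 6.67%). Sp/KLF (GGGGCGGGG) occurred at Ifngr2, with the 2 matches in capitals above, and at Il4ra (11.4% and 22.3%). RUNX (TGTGGT) matched at Il7r, Il21r and Il9r (16.8% and 12.4%), forkhead (TGTTTAC) at Il21r (3.65% and 2.48%), and AP-1 (TGANTCA) at 1 window of Il15ra (7.81% and 4.61%). ETS (CCGGAAG, 8.86% and 19.3%) and the CTCF core motif (8.61% and 13.4%) each matched the other Il15ra window. The Ifngr1 and Il6ra windows held none of the 7 motifs.

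The genes these receptors work with were mostly open in both libraries. Of 51 pathway genes outside the group, 41 were open in WT and 37 in cKO by at least 1 assigned peak. Peaks of these genes, and of the marker genes below, were counted only by the authors' gene symbol. A gene without one may still hold peaks assigned to a neighbour, as Il6ra does. All 37 also had a WT peak. Over all genes with a WT peak, 71.8% had at least 1 cKO peak. Of their 118 WT peaks 78 had a partner (66.1%, 57.2 to 74.0), against 56.1% of all WT peaks. Among partner chains 8 of 10 had peaks in both. Il2rg, the common gamma chain, shared its promoter peak, which stood at percentile 80.7 in WT and 59.3 in cKO, and Il6st, the gp130 chain of the IL-6 receptor, shared 4 of 5. Il12rb2, the second chain of the IL-12 receptor, shared 1 of 2 and had 1 cKO peak without a WT partner, the only such peak of the list. Il23r and Il13ra1 had no assigned peak.

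All 4 kinases and all 7 STAT factors had peaks in both libraries. The genes with most WT peaks were Jak2 (5 of 10 overlapped), Stat5b, which acts below the IL-7 and IL-15 receptors (6 of 8), and Stat4, which acts below the IL-12 receptor (3 of 7). Stat6, the factor of IL-4 signalling, shared its only WT peak, and Stat3, used by IL-6 and IL-21, shared 4 of 5. Among ligands 6 of 13 had a WT peak and 4 a cKO peak. Il7, Il6, Il21, Il12b, Il17a, Il17f and Tslp had no assigned peak. Ifng shared 2 of its 3 assigned peaks, none of the promoter class. Genes with assigned peaks in WT alone included the cytokines Il4 (2 peaks) and Il13 (1) and the STAT5 target and inhibitor Socs2 (1). Their strongest WT peaks stood at percentiles 45.0, 29.7 and 33.1.

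Marker genes were checked for the sorted population. Of 10 Treg markers 9 had peaks in both libraries, Foxp3 and Il2ra included, and Tnfrsf18 had none assigned to it. T cell markers had them at 6 of 7. Over all genes with a WT peak, 71.8% had at least 1 cKO peak. Among markers of other cells, B cell genes had a WT peak at 4 of 8 and a cKO peak at 3, myeloid genes at 5 and 5 of 8, CD8 T and NK genes at 3 and 3 of 8, and erythroid genes at 3 and 3 of 6. A cKO peak overlapped 77.1% of WT peaks of Treg markers, 57.1% of T cell and 42.9% of B cell markers. For myeloid, CD8 T and NK, and erythroid markers it was 80.0%, 66.7% and 66.7%, against 56.1% of all WT peaks. The lists held from 3 (erythroid) to 35 (Treg) WT peaks. Ms4a1, Csf1r, Itgam, Cd8a and Ncr1 had no assigned peak in either library. Others had some, and equal counts of genes do not mean the same genes in both libraries. Klrb1c, an NK cell receptor, had 4 WT and 2 cKO peaks, with the strongest at percentile 86.6 and 85.1, and Adgre1, a macrophage surface protein, had 1 in each, at 84.5 and 65.0. Cd79b (4 peaks) and Spi1 (1) had assigned peaks in WT alone, and Lyz2 and Gata1 had 1 each in cKO alone. Many of these receptors are also expressed by such cells, and the part of other cells in the receptor peaks was not tested.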

How the data were processed

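Build mm10 and the tools Trimmomatic, FastQC, BWA and MACS2 are named per the submitters' processing notes. Versions, settings, read filters and any Tn5 shift are not given there. The authors deposited 1 annotated peak list for each library, so peaks were called per library. The score column that the authors deposited is not explained by the file headers, so peaks were ranked and filtered by it only inside their own list. Starts count from 1, and each distance is that of the nearest peak edge to the TSS, 0 where the peak spans it (checked on all peaks).

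Overlap of at least 1 bp defined a shared peak, with Wilson intervals from scipy 1.17.1. The overlap code was tested on simulated data and differed from bedtools 2.31.1 at 0 of 34440 WT and 0 of 19680 cKO peaks. RefSeq positions (GRCm38.p6) were used because 99.9% of the 15468 shared symbols lay on the RefSeq gene of that name. No genome sequence was at hand, so motifs were searched only in RefSeq promoter windows. Alternatives were a reciprocal overlap of 50%, peaks above the median score, equal numbers of peaks, a common width minimum, RefSeq assignment within 10 kb, promoters within 1 kb and, added after the data were seen, the group without Il21r.

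Named were all 10 receptors, their strongest peak in each list, every peak within 1 kb of the TSS and every peak without a partner. From the pathway list the 3 genes with most WT peaks were named, and those with peaks in one library alone or a cKO peak without partner. Some items of the lists are not reported here by name. Further names there were chosen after the values were seen. The receptors and lists were chosen with earlier results of these data known.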

Additional observations from a re-analysis of the deposited data

How the results depend on the processing

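No paired analysis was possible because each genotype has 1 library, which also means that no replicate can be dropped. The WT share of the receptors with a cKO overlap ranged from 55.6% (above the median scores) to 81.0% (equal numbers), inside the interval of the value as deposited, and over all WT peaks it was 57.0% and 83.0% under these settings. It stood above the share over all WT peaks with reciprocal overlap of 50%, a common width minimum, RefSeq assignment and without Il21r, and below it with equal numbers and above the median scores. With equal numbers of peaks the share of cKO receptor peaks with a WT overlap was 73.9%, against 83.0% over all cKO peaks, and the WT to cKO ratio of peak numbers was 0.913, both because the WT list is shortened there. Genes with a promoter peak in both libraries numbered 7, or 5 above the median scores, and pathway genes with a cKO peak 37, or 30. Depth was unknown, so an absent cKO peak may be one below the caller's threshold.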
